A study of Homo sapiens with 3 samples.

Results

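MAPK12 encodes p38 gamma, 1 of the 4 p38 mitogen-activated protein kinases. It was followed together with the other p38 kinase genes (MAPK14, MAPK11 and MAPK13), the genes of their activating kinases (MAP2K3 and MAP2K6) and those of kinases that act below them (MAPKAPK2, MAPKAPK3 and MAPKAPK5). These 9 genes were taken by name, and all 9 are among the 23284 genes listed in the RNA-seq data. The cells were 293T, a human embryonic kidney line carrying the SV40 large T antigen. Every library came from cells expressing dCas9-VP64, a cleavage-dead Cas9 fused to a transcriptional activator that a guide RNA brings to its DNA target, and the libraries differed in the guide RNA. The mock cells carried the parental guide vector, and the others carried sgL1ASP #1 or sgL1ASP #3, guides against the antisense promoter in the LINE-1 (L1) retrotransposon. Each condition is a single library, which leaves every difference between the libraries without a replicate check or p-value. The fraction of cells that took up the plasmids and the time of harvest are not given for these libraries. In such bulk RNA, a change in the number of expressing cells and a change in RNA per cell cannot be told apart.

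The p38 kinases relay stress and cytokine signals. MAP kinase kinases, chiefly the products of MAP2K3 and MAP2K6, phosphorylate a threonine and a tyrosine in the p38 activation loop, and the active p38 then phosphorylates transcription factors and further kinases such as MK2, the product of MAPKAPK2. This control acts on the proteins, so mRNA levels do not measure p38 activity. MAPK14 (p38 alpha) is the most studied form and occurs in most tissues, MAPK12 is best known from skeletal muscle, and p38 gamma alone among the p38 kinases ends in a sequence that binds PDZ domains.

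The coding sequences of the 4 paralogs are alike enough that reads could in principle be exchanged between them, so the stretch around the activation loop is shown first, with the codons of the threonine, the glycine and the tyrosine in capitals (GENCODE 44 on GRCh37, the sequence also called hg19).
MAPK14: gaaatgACAGGCTACgtggccactagg
MAPK11: gagatgACCGGCTATgtggccacgcgc
MAPK12: gagatgACTGGGTACgtggtgacccgg
MAPK13: gagatgACTGGCTACgtggtgacccgc
The MAPK12 stretch lies within an exon on the minus strand at chr22:50694566-50694592, and it shares 25 of 27 bases with MAPK13 and 20 with both MAPK14 and MAPK11. MAPK11 lies at chr22:50705415-50705441 on the minus strand, MAPK14 at chr6:36043661-36043687 and MAPK13 at chr6:36104469-36104495, both on the plus strand. The activating kinases share a corresponding stretch, shown with the codons from the first to the second phosphorylated residue in capitals, at chr17:21207815-21207841 and chr17:67519732-67519758 on the plus strand.
MAP2K3: gtggacTCTGTGGCCAAGACGatggat
MAP2K6: gtggacTCTGTTGCTAAAACAattgat
The coding sequence of MAPK12 ends, before the stop codon, with the last 4 codons in capitals, which encode the PDZ-binding end (chr22:50691833-50691847).
MAPK12: aagGAGACGCCTCTG

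Over the whole coding sequence, identity among the p38 paralogs was between 65.4% (MAPK13 and MAPK14) and 73.7% (MAPK12 and MAPK13). The longest exact run that any of these pairs shared was 26 bases, between MAPK11 and MAPK14, and for MAPK12 it was 23 bases, with MAPK13. These runs are shown because they are far shorter than the 75-base reads.
MAPK11 and MAPK14: ttctaccggcaggagctgaacaagac
MAPK12 and MAPK13: gtggacatctggtctgtgggctg
Of the 1704 stretches of 75 bases in the canonical MAPK12 transcript, 0 occurred in a transcript of another gene and 0 elsewhere in GRCh37. For MAPK11, MAPK14, MAP2K3, MAPKAPK2 and MAPKAPK3 both numbers were 0 as well. In MAPK13 1.15% of the stretches occurred elsewhere in the genome and 0 in transcripts of other genes. The share found elsewhere in the genome was 0.420% in MAP2K6 and 1.09% in MAPKAPK5. In MAP2K6 0.045% occurred in transcripts of other genes, DUXAP10 and MEG8. In MAPKAPK5 19.3% occurred in transcripts of other genes, ADAM1A among them, which lies inside the long 3′ part of that transcript. No member shared a stretch of this length with another member. A read that matches MAPK12 without error therefore has no second place in the reference, with mismatches not considered.

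The authors deposited FPKM, fragments scaled to exon length and to the total of mapped fragments, a level per length that can be compared between genes. The values summed to between 619902.5 and 673483.0 per library. The depth was estimated from genes with a single transcript, as the most common depth at which their FPKM would stand for 1 read. It was 10400000 reads in mock, 10300000 under sgL1ASP #1 and 8700000 under sgL1ASP #3. Reads per gene below are such estimates, and intervals made from them cover counting error only. Of 7 genes typical of 293T cells, such as VIM and KRT18, 6 had FPKM of at least 1 in each library, PAX2 being the exception. Their summed FPKM was 952.8 to 1047.7, against 9.88 to 13.4 for 11 markers of blood, liver, fibroblasts, endothelium and glia, of which PTPRC and CD3E were at 0 throughout. The part of these cell type markers in the values below was not tested.

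Among the p38 kinase genes MAPK12 had the highest level. Its FPKM was 50.2 in mock, 60.2 under sgL1ASP #1 and 56.3 under sgL1ASP #3. The mock library was the lowest and sgL1ASP #1 the highest. MAPK14 followed with 15.8, 16.2 and 17.3 in the same order of libraries. MAPK11, which encodes p38 beta, had 4.36, 3.8 and 3.78. MAPK13, which encodes p38 delta, was lowest with 0.850, 0.803 and 0.409, under FPKM 1 in every library. The order MAPK12, MAPK14, MAPK11, MAPK13 was thus the same in all 3 libraries. MAPK12 exceeded MAPK14 by 3.18-fold in mock (95% counting interval 2.72 to 3.73), 3.72-fold under sgL1ASP #1 (3.19 to 4.35) and 3.26-fold under sgL1ASP #3 (2.76 to 3.84). The steps from MAPK14 to MAPK11 (3.61- to 4.57-fold) and from MAPK11 to MAPK13 (4.73- to 9.25-fold) also lay outside counting error, so that no neighbours in this order were indistinguishable within a library. With 14 MAP kinase genes of all families compared, MAPK12 ranked second in each library behind MAPK3, which encodes ERK1 and had FPKM 82.3 to 91.2. Among all 23284 genes it ranked 1904 in mock, 1575 under sgL1ASP #1 and 1694 under sgL1ASP #3.

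**Figure D1:**
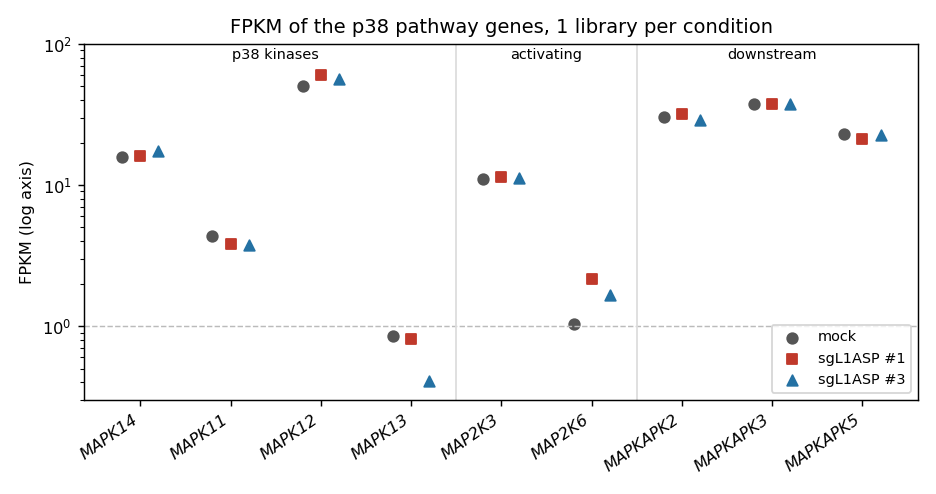
FPKM (log axis) of the 9 genes in the mock (circles), sgL1ASP #1 (squares) and sgL1ASP #3 (triangles) libraries, 1 library each, with FPKM 1 as a dashed line. MAPK12 sits highest, between 50.2 and 60.2, MAPK13 sits below FPKM 1 in every library, and MAP2K6 and MAPK13 show the widest spread between libraries.

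The FPKM of the 4 p38 genes summed to 71.1 in mock, 80.9 under sgL1ASP #1 and 77.8 under sgL1ASP #3. The MAPK12 part of this sum was 70.5% in mock, 74.3% under sgL1ASP #1 and 72.4% under sgL1ASP #3. A share within a library does not move when libraries are rescaled. It was higher with either guide than in mock, by less than 4 percentage points. The share of MAPK14 was 22.2%, 19.97% and 22.2%, that of MAPK11 was 6.13%, 4.70% and 4.86%, and that of MAPK13 was 1.19%, 0.992% and 0.526%. Counted in estimated reads, which also reflect transcript length, MAPK12 held 68.1% of p38 reads in mock (95% Wilson interval 65.3 to 70.8), 72.6% in sgL1ASP #1 (70.03 to 75.04) and 71.9% in sgL1ASP #3 (69.1 to 74.7). These intervals overlap between mock and each of the guides. Each describes 1 library, so their overlap does not show that the shares are alike. The difference in share was not tested.

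**Figure D2:**
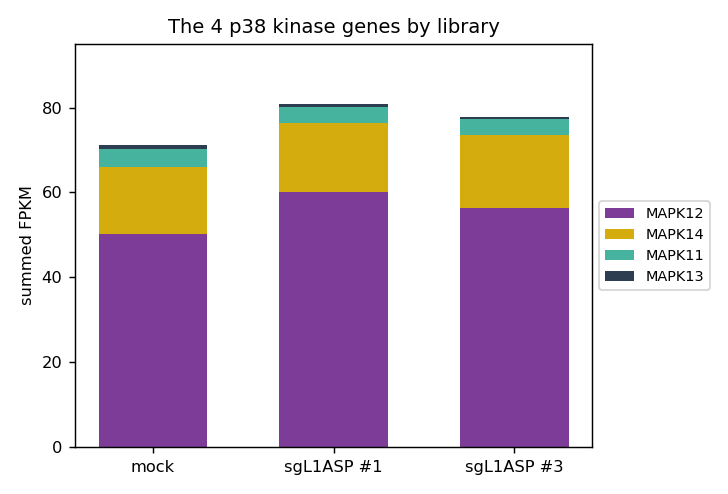
Summed FPKM of the 4 p38 kinase genes in each library (1 library per condition), stacked by gene from an axis that starts at 0. The MAPK12 block makes up 70.5% of the bar in mock, 74.3% under sgL1ASP #1 and 72.4% under sgL1ASP #3.

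MAPK12 is on the study's list of genes raised by the guides, so its direction here is not independent of that choice. That list asks for a step of more than 1.5-fold both from mock to sgL1ASP #3 and from there to sgL1ASP #1. Its entries for MAPK12 could not be matched to the deposited FPKM and were not used. The study also measured MAPK12 RNA by real-time RT-PCR in repeated experiments, and reports that its expression was affected in guide-treated cells. Those measurements are not part of the RNA-seq data and were not examined here. Relative to mock, the FPKM of MAPK12 was 1.2-fold with sgL1ASP #1 (95% counting interval 1.09 to 1.32) and 1.12-fold with sgL1ASP #3 (1.01 to 1.24). On the log2(FPKM + 0.1) scale these differences were 0.26 with a counting standard error of 0.072 and 0.17 with one of 0.076. Between the guides the ratio of sgL1ASP #1 to sgL1ASP #3 was 1.07 (0.968 to 1.18), an interval that includes 1. None of the 3 ratios reached 1.5-fold. The estimate behind these intervals was 743 reads in mock, 880 under sgL1ASP #1 and 694 under sgL1ASP #3. When reads were estimated from the coding length alone, the interval with sgL1ASP #1 was 1.06 to 1.36 and that with sgL1ASP #3 was 0.986 to 1.28, and with the shortest annotated coding transcript the interval with sgL1ASP #1 also reached 0.999.

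Of the 6896 genes with FPKM of at least 10 in every library, 152 (2.2%), MAPK12 included, had a log2 change as high or higher with sgL1ASP #1, and 533 (7.73%) with sgL1ASP #3. More than 1.1-fold higher than mock were 11.0% of these genes with sgL1ASP #1 and 11.5% with sgL1ASP #3. MAPK12 thus lay toward the upper end of both distributions, which share the mock library. Bringing the FPKM sums of the libraries to a common value shifts all genes by -0.094 with sgL1ASP #1 and by -0.12 with sgL1ASP #3 on the log2 scale, which leaves MAPK12 at 0.17 and 0.047. The second of these is below its counting standard error of 0.076, so the difference of MAPK12 with sgL1ASP #3 is then within counting error. On that scale MAPK14, MAP2K3, MAPKAPK2 and MAPKAPK3 turned from above to below mock with sgL1ASP #1, and MAP2K3 and MAPKAPK3 did so with sgL1ASP #3. The median ratio to mock over 12347 genes was 1.0007 with sgL1ASP #1 and 1.0013 with sgL1ASP #3. Rescaling to this median instead left MAPK12 at 0.26 and 0.16, and none of the 9 genes changed direction against mock.

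**Figure D3:**
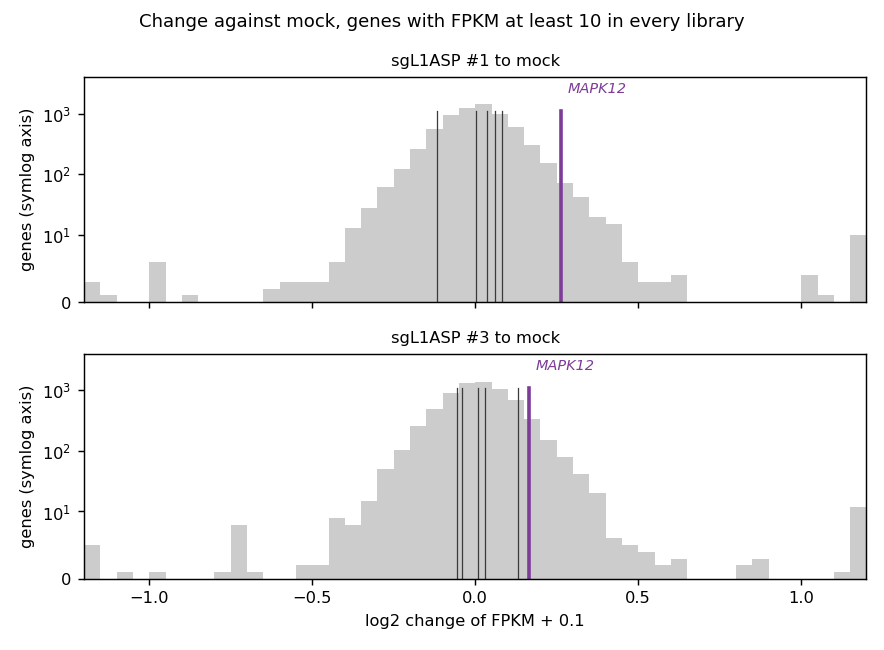
Number of genes (symlog axis, linear up to 10) by log2 change of FPKM + 0.1 against mock, for the 6896 genes with FPKM of at least 10 in every library, with sgL1ASP #1 above and sgL1ASP #3 below. The thick line marks MAPK12 at 0.26 and 0.17, thin lines mark MAPK14, MAP2K3, MAPKAPK2, MAPKAPK3 and MAPKAPK5, and the end bins hold all values beyond the axis.

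The other p38 kinase genes did not share the direction of MAPK12 as a group. MAPK14 was 1.02-fold with sgL1ASP #1 (0.840 to 1.25) and 1.1-fold with sgL1ASP #3 (0.894 to 1.34), both intervals including 1. MAPK11, the neighbour of MAPK12 on chromosome 22, was lower than mock with both guides, at 0.871-fold (0.654 to 1.16) and 0.866-fold (0.641 to 1.17), again within counting error. MAPK13 was 0.946-fold with sgL1ASP #1 and 0.481-fold with sgL1ASP #3, but it failed the filter of mean FPKM 1. Its estimate was 53, 50 and 21 reads in mock, sgL1ASP #1 and sgL1ASP #3, for which the interval with sgL1ASP #3 was 0.291 to 0.796. When only its coding length was counted, the estimate fell to 8, 7 and 3 reads and the interval widened to 0.131 to 1.77, so the depth does not settle this difference.

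Of the activating kinases, MAP2K3 (MKK3) was the more abundant, with FPKM 10.9 in mock, 11.4 under sgL1ASP #1 and 11.2 under sgL1ASP #3. Its ratios to mock were 1.04 and 1.02. MAP2K6 (MKK6) had FPKM 1.03 in mock, 2.15 under sgL1ASP #1 and 1.65 under sgL1ASP #3. Mock was lowest and sgL1ASP #1 highest, the same order as for MAPK12 and MAP2K3. The share of all genes with this order was not counted. The ratio to mock was 2.08 with sgL1ASP #1 and 1.60 with sgL1ASP #3, and the ratio of sgL1ASP #1 to sgL1ASP #3 was 1.30. MAP2K6 was the only one of the 9 genes more than 1.5-fold higher than mock. Its estimate was 10, 20 and 13 reads, and the intervals of 0.963 to 4.5 and 0.695 to 3.71 include 1. Its annotated coding transcripts run from 632 to 13405 bases, and if all reads came from the longest, the estimate would be 142, 292 and 190 reads and the intervals would be 1.70 to 2.54 and 1.29 to 1.99. If they came from the shortest, the intervals would be 0.688 to 6.31 and 0.482 to 5.34. The transcript model behind the deposited MAP2K6 value is not given in the sources used here.

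The 3 downstream kinase genes were expressed at similar levels in all libraries. MAPKAPK2 (MK2), which acts on RNA-binding proteins and small heat shock proteins, had FPKM 30.1 in mock, 31.9 under sgL1ASP #1 and 29.0 under sgL1ASP #3. MAPKAPK3 (MK3), its close relative, had 37.4, 37.5 and 37.6. MAPKAPK5 (MK5 or PRAK), which also binds the atypical kinase ERK3, had 23.1, 21.3 and 22.5. The highest and lowest library differed by 1.1-fold for MAPKAPK2, 1.01-fold for MAPKAPK3 and 1.08-fold for MAPKAPK5, and each interval against mock included 1. If all MAPKAPK5 reads came from its longest transcript, the interval with sgL1ASP #1 would be 0.872 to 0.974.

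**Figure D4:**
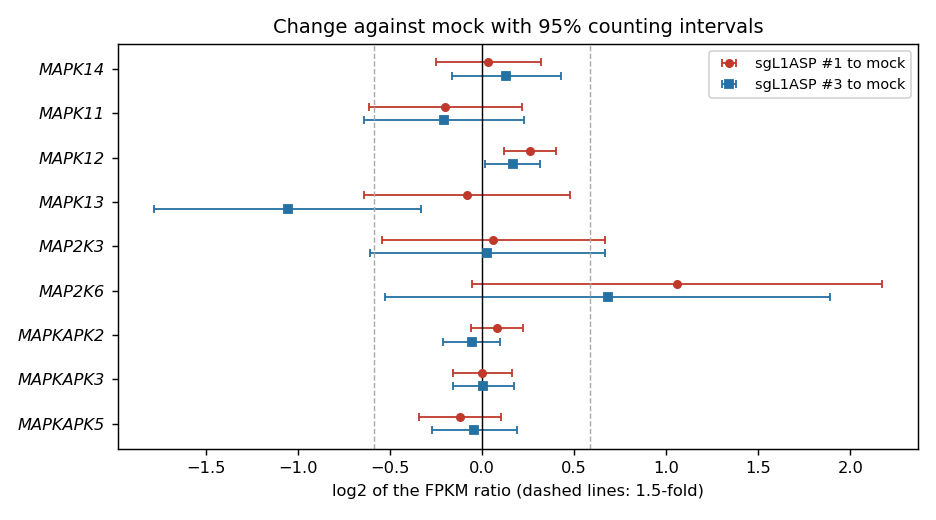
log2 of the FPKM ratio to mock for the 9 genes, circles for sgL1ASP #1 and squares for sgL1ASP #3, with bars for 95% counting intervals from estimated reads (median coding transcript) and dashed lines at 1.5-fold. The interval lies above 0 for MAPK12 with both guides, below 0 for MAPK13 with sgL1ASP #3, and includes 0 for the others.

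Over the 8 genes with mean FPKM of at least 1, 1 was more than 1.5-fold higher than mock with sgL1ASP #1 and 0 were lower, where 1.76% of all 12830 genes tested were higher and 1.79% lower. With sgL1ASP #3 the counts were 1 and 0 again, against 1.75% and 2.05% of all genes. Both counts are MAP2K6, and the one with sgL1ASP #3 became 0 with a pseudocount of 1 and when the FPKM sums were made equal. At the lower threshold of 1.1-fold, MAPK12 and MAP2K6 were higher and MAPK11 lower with sgL1ASP #1, where 17.3% of all genes were higher and 17.8% lower. The same 3 genes passed with sgL1ASP #3, against 17.6% and 17.7% of all genes. Between the guides, 0 of the 8 passed 1.5-fold in either direction, where 1.96% of all genes were higher and 1.82% lower. A higher value of more than 1.1-fold was held by 1 of them, MAP2K6, against 17.4% of all genes, and a lower one by 0, against 17.7%. For sgL1ASP #1 to mock the median log2 change of the 8 genes was 0.048, and for sgL1ASP #3 to mock it was 0.018. The corresponding medians of all genes tested were 0.00085 and 0.0015.

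The wider pathway was followed with a list of 50 genes, of which 46 had mean FPKM of at least 1. With either guide, 0 of the 46 were more than 1.5-fold higher or lower than mock, where 1.76% and 1.79% of all genes were so with sgL1ASP #1 and 1.75% and 2.05% with sgL1ASP #3. More than 1.1-fold, 5 were higher and 6 lower with sgL1ASP #1, and 7 were higher and 6 lower with sgL1ASP #3. The shares of all genes were 17.3% and 17.8% with the former guide and 17.6% and 17.7% with the latter. The 46 genes had a median log2 change of -0.0055 with sgL1ASP #1 and -0.030 with sgL1ASP #3. Between the guides 1 gene was more than 1.5-fold higher, against 1.96% of all genes, and 0 were lower, against 1.82%. The gene that passed, ZFP36 (tristetraprolin, an RNA-destabilizing protein that MK2 phosphorylates), had FPKM 1.67 in mock, 1.94 under sgL1ASP #1 and 1.19 under sgL1ASP #3, and with a pseudocount of 1 it no longer passed.

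Above MAP2K3 and MAP2K6, all 14 genes of the MAP3K layer, MAP2K4 counted with them, had mean FPKM of at least 1. TAOK2, a kinase that activates MKK3 and MKK6, had the highest level, with FPKM 41.7 in mock, 39.97 under sgL1ASP #1 and 40.7 under sgL1ASP #3. MAP3K7 (TAK1), which links cytokine receptors to the pathway, had 27.01, 28.3 and 26.1. MAP3K10, a mixed-lineage kinase, had 17.0, 17.8 and 17.3. The log2 changes of this layer lay between -0.13 and 0.13 with sgL1ASP #1 and between -0.21 and 0.22 with sgL1ASP #3. Among adaptors and scaffolds, GADD45A, a stress-induced activator of MAP3K4, had FPKM 53.0, 54.9 and 52.3. MAPK8IP2, a scaffold protein, had 29.1, 29.0 and 29.4, and TAB1, a TAK1 partner that can also bind p38 alpha, had 27.2, 27.1 and 28.4. The highest library exceeded the lowest by less than 1.1-fold for each of these adaptor genes.

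Of the further downstream kinases, MKNK2 had FPKM 53.6 in mock, 58.3 under sgL1ASP #1 and 57.2 under sgL1ASP #3, MKNK1 had 14.97, 16.3 and 15.1, and RPS6KA4 (MSK2) had 8.20, 8.49 and 8.22. The phosphatase DUSP1, which inactivates p38 and is itself stress-induced, had 25.4, 26.5 and 29.1. PPM1D (WIP1) had 12.7, 11.6 and 12.4, and DUSP16 had 10.5, 9.10 and 8.91. The substrate genes were led by DDIT3 (CHOP) with 139.6, 153.5 and 149.5, HSPB1 (HSP27), a protein phosphorylated by MK2, with 118.0, 108.7 and 124.3, and ELK1 with 31.2, 31.7 and 31.7. DUSP1 and HSPB1 were highest in sgL1ASP #3 and DDIT3 in sgL1ASP #1, each by less than 1.2-fold over mock. The PDZ domain proteins that bind p38 gamma were represented by DLG1, a scaffold at cell junctions, with 8.43, 7.82 and 8.01, and by PTPN3, a tyrosine phosphatase, with 4.80, 4.60 and 4.56. Both were highest in mock.

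**Figure D5:**
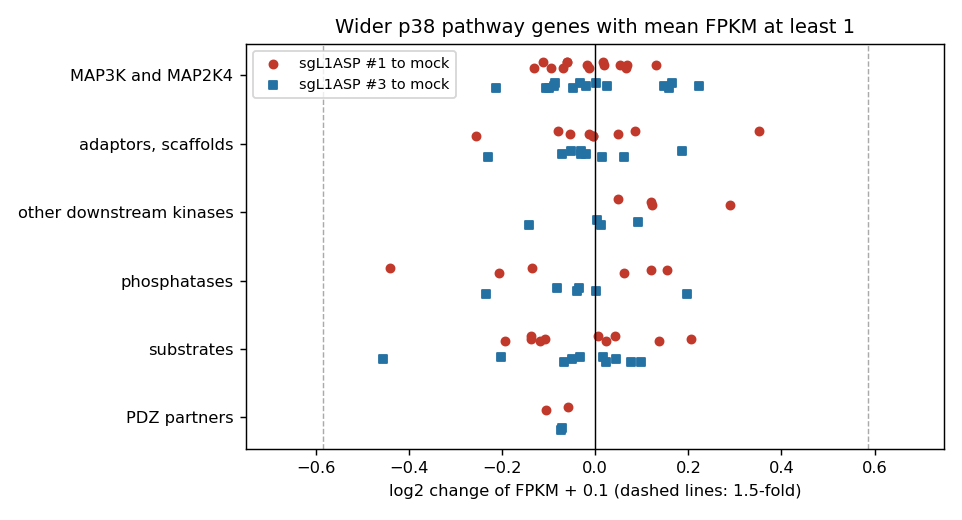
log2 change of FPKM + 0.1 against mock for 45 of the 46 wider pathway genes with mean FPKM of at least 1, circles for sgL1ASP #1 and squares for sgL1ASP #3, grouped by role, with dashed lines at 1.5-fold. All points lie between the dashed lines, and ZFP36 with sgL1ASP #3 lies farthest to the left at -0.46.

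The kinase genes around p38 lie apart from each other, MAP2K3 at chr17:21187984-21218544 and MAP2K6 at chr17:67410838-67550006, MAPKAPK2 at chr1:206858250-206907626, MAPKAPK3 at chr3:50648951-50686722 and MAPKAPK5 at chr12:112279817-112340026, all on the plus strand of GRCh37. The p38 genes themselves lie in pairs on chromosomes 22 and 6 of GRCh37. MAPK12 (chr22:50683879-50700145) and MAPK11 (chr22:50702142-50709196) are on the minus strand, 1996 bases apart. On the plus strand of chromosome 6, MAPK14 (chr6:35995559-36079013) and MAPK13 (chr6:36095586-36112301) are 16572 bases apart. A MAPK12 transcript with no annotated coding sequence runs into HDAC10 on the same strand, whereas the canonical MAPK12 transcript of 12 exons lies 1495 bases from HDAC10. HDAC10, a deacetylase gene, had FPKM 21.6 in mock, 19.6 under sgL1ASP #1 and 22.2 under sgL1ASP #3, lowest in the library where MAPK12 was highest. TUBGCP6, which encodes a part of the gamma-tubulin complex and lies 0.4 kb from the end of the annotated MAPK12 gene, had 26.95, 31.8 and 29.3. HDAC10 lies between TUBGCP6 and the canonical MAPK12 transcript. The log2 change of TUBGCP6, 0.24 with sgL1ASP #1 and 0.12 with sgL1ASP #3, was near that of MAPK12. PLXNB2, on the other side of MAPK11, had log2 changes of 0.11 and 0.041, TRABD of 0.077 and 0.030, PPP6R2 of -0.0042 and 0.044, and SBF1 of -0.0072 and 0.079. Beside MAPK14 and MAPK13, SRPK1 had log2 changes of -0.015 and 0.013 and BRPF3 of -0.11 and -0.038. SLC26A8 was listed at 0 in every library, and LHFPL5, PNPLA1 and ETV7 were under FPKM 0.4 throughout.

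Of the 6895 other genes with FPKM of at least 10 in every library, the 5 nearest to MAPK12 in their log2 changes with the 2 guides were SLC1A4 (0.26 and 0.17), TMEM203 (0.26 and 0.18), ZUFSP (0.26 and 0.18), LINC00493 (0.26 and 0.15) and FOXD1 (0.28 and 0.16). The distances were between 0.0055 and 0.017 on the log2 scale. They rest on 3 libraries that give 2 changes with a shared mock, and are given as a description.

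The MAP kinases of other families were measured beside the p38 genes. Of 10 such genes, 8 had mean FPKM of at least 1, and 0 of these were more than 1.5-fold from mock with either guide, where 1.75% to 2.05% of all genes were in each direction. A count of 0 among so few genes does not set them apart. MAPK3 (ERK1) had log2 changes of 0.12 with sgL1ASP #1 and 0.15 with sgL1ASP #3, and MAPK7 (ERK5) of 0.24 and 0.30. MAPK6 (ERK3), the partner of MK5, had -0.23 and -0.19. MAPK7 with FPKM 10.04, 11.8 and 12.4 thus had changes of a size like those of MAPK12.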

How the data were processed

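RNA-seq of 293T cells was analysed in 3 libraries, 1 each for mock, sgL1ASP #1 and sgL1ASP #3. The authors prepared stranded mRNA libraries, read 75 bases in single-end mode, mapped to hg19 with TopHat2 2.0.13, Bowtie2 2.2.3 and SAMtools 0.1.19, and deposited 1 FPKM value per gene from Cuffdiff (Cufflinks 2.2.1), counted by strand. The gene annotation is not given in the sources used here. FPKM was used as deposited.

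The members and gene lists were chosen with earlier results of these data known. Ratios of FPKM, and log2(FPKM + 0.1) for counts and medians, were set beside the genes with mean FPKM of at least 1. The pseudocount understates changes of low genes. Genes named are the 9 members, the 3 most abundant genes of each subgroup of the wider list, those of it past 1.5-fold, the 3 coding genes on either side of each p38 pair and the 5 genes most like MAPK12. Other MAP kinase genes and cell markers were named for context. Of the genes this rule names, 1 of the wider list is not reported here, though the counts include it. ZAK stands for MAP3K20 in the files.

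Depth was estimated from genes with a single transcript over 1000 bases after subtracting a fragment of 200 bases. The peak behind each estimate held few of these genes, 19 of 955 in mock, 30 of 1001 under sgL1ASP #1 and 31 of 954 under sgL1ASP #3. The modal ratio of the lowest values gave relative depths of 0.986 for sgL1ASP #1 and 0.832 for sgL1ASP #3. Reads per gene used the median length of coding transcripts (GENCODE 44 on GRCh37), and 95% intervals used Poisson error on the log scale. Calls and depth were tested on simulated data with counting error alone and with changes larger than any seen in the members. That does not test calls of smaller changes or variation between replicates. Python 3.11.15, NumPy 2.4.6, pandas 2.3.3, SciPy 1.17.1, Biopython 1.88 and matplotlib 3.10.9 were used.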

Additional observations from a re-analysis of the deposited data

How the results depend on the processing

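No paired analysis was possible because the 3 conditions are single libraries, of which none could be left out. All 27 ratios of the 9 genes stayed within their counting interval without a pseudocount, with a pseudocount of 1 and after both kinds of rescaling. Rescaling each library to an FPKM sum of 1000000 left 2 of the 9 genes, MAPK12 and MAP2K6, above mock with sgL1ASP #1 and 3, with MAPK14, with sgL1ASP #3, in place of 6 and 5. Its other effects were counts of 2 genes over 1.1-fold lower with sgL1ASP #1, of 0 over 1.5-fold higher, 1 over 1.1-fold higher and 3 over 1.1-fold lower with sgL1ASP #3, of 2 over 1.1-fold higher between the guides, and medians with sgL1ASP #3 of -0.10 for the members and -0.15 for the wider list. Rescaling to the median ratio gave 2 members over 1.1-fold higher between the guides. With a pseudocount of 1, 0 members were over 1.5-fold higher with sgL1ASP #3 and 0 wider list genes between the guides. With no filter MAPK13 entered, giving 1 member over 1.5-fold lower and 2 over 1.1-fold lower with sgL1ASP #3, and 1 over 1.5-fold and 2 over 1.1-fold higher between the guides. Of the wider list, 1 gene (MEF2C) was then over 1.5-fold lower with sgL1ASP #1 and 1 between the guides. The shares of all genes were not recomputed under these changed settings, so these counts have no background beside them and are given as a description. In estimated reads the p38 shares in mock, sgL1ASP #1 and sgL1ASP #3 were 9.27%, 7.17% and 7.56% for MAPK11, 4.88%, 4.10% and 2.21% for MAPK13 and 17.8%, 16.2% and 18.3% for MAPK14, since their transcripts differ in length. Reads estimated from the coding length, chosen after seeing the data, moved 9 of 27 counting errors by over 1.5 times, the longest transcript 12 and the shortest 18.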

Other observations

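The wider pathway list and the other MAP kinases held 6 genes under mean FPKM 1, which the counts leave out. Given in the order mock, sgL1ASP #1, sgL1ASP #3, the FPKM of MEF2C, which encodes a transcription factor phosphorylated by p38, was 1.01, 0.596 and 1.09. MAPK4 (ERK4) had 0.672, 0.298 and 0.607, and MAPK10 (JNK3) had 0.27, 0.146 and 0.208. In these 3 genes the sgL1ASP #1 library was lowest. GADD45G, a relative of GADD45A, was instead highest there, with 0.444, 0.675 and 0.534. DUSP4, a MAP kinase phosphatase, had 0.598, 0.516 and 0.677, and PTPN7 was listed at 0 in both guide libraries and at 0.035 in mock.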
